A study of Mus musculus with 26 samples.

Results

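Fibronectin (Fn1), the matricellular genes Tnc, Postn, Thbs1, Thbs2, Thbs4 and Sparc, the collagen crosslinking enzymes Lox and Loxl1, and the proteoglycan biglycan (Bgn) were followed through muscle injury and through Mettl3 repression in myoblasts. These 10 genes were taken by symbol from the 2 deposited expression tables, which list 53465 genes in the muscle table and 55487 in the cell table. All 10 were measured in muscle, and 9 passed the filter on low values in the cells, where Thbs4 did not.

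The muscle libraries came from the tibialis anterior of 6-week-old male C57BL/6J mice, by the study's methods, collected on days 1, 3, 5 and 10 after an injection of cardiotoxin (CTX), a snake venom toxin that destroys muscle fibres and starts regeneration. Day 0 stands for muscle before injury, and whether it received a saline injection is not settled by the sources used here. The cell libraries came from C2C12, a mouse myoblast line that fuses into myotubes in low serum, as control cells (CTRL) and as Cas9M3 cells, each in growth medium (day 0) and on day 3 of differentiation. Cas9M3 cells carry, by the methods, a lentiviral dCas9-KRAB repressor with guides against the Mettl3 promoter and were selected with puromycin as a stable population, while the series text calls them knockout derivatives. Mettl3 encodes the catalytic subunit of the RNA m6A methyltransferase. Each group held 2 libraries. The methods speak in general of independent biological samples, but the labels tie no library to an animal or culture, so p-values measure the spread between these libraries, which may be technical in part.

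Matricellular proteins are secreted into the extracellular matrix, where they act on cell adhesion, migration and growth factor signals more than on the strength of the matrix itself. In adult tissue many of them are sparse and return during repair. Fibronectin forms the provisional matrix on which collagen is laid down, the lysyl oxidases Lox and Loxl1 crosslink collagen and elastin, and biglycan, a small leucine-rich proteoglycan, binds collagen fibrils. In regenerating muscle such matrix surrounds satellite cells, the muscle stem cells, and is made largely by fibroblasts and fibroadipogenic progenitors.

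The upstream sequences of the 3 genes with the largest day 3 rises among those with a RefSeq promoter entry (Tnc, Postn and Thbs2), and of Thbs4, the only one of the 10 genes not measured above its floor in the cells, are shown because these genes moved together in muscle and Thbs4 did not follow the others into the cells. Each run gives the 250 bases before the transcript start in GRCm38.p6, 5′ to 3′ on the gene's own strand, from RefSeq. Capitals mark matches to TATAAA or GGAATG on either strand.
Tnc: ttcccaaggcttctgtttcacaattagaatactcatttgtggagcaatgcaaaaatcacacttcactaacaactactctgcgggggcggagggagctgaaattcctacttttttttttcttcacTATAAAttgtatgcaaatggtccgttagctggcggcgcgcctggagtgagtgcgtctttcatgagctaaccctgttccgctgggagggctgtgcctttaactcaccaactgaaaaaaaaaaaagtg
Postn: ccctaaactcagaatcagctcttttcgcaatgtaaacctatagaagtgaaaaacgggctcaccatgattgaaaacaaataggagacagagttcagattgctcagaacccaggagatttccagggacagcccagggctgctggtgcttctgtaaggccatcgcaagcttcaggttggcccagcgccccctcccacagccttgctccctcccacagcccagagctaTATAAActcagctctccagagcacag
Thbs2: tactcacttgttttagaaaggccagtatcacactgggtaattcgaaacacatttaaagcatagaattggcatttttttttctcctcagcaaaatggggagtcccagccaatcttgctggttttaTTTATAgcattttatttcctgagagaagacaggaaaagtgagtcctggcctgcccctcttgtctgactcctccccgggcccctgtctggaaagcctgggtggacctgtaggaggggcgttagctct
Thbs4: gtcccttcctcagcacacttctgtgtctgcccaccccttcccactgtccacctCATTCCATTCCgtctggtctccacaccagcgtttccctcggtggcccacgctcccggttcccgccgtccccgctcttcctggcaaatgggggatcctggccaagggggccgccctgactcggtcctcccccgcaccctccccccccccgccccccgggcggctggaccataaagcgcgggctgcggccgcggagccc
The windows lie at chr4:64047016-64047265 (minus strand, Tnc), chr3:54360857-54361106 (plus strand, Postn), chr17:14694263-14694512 (minus strand, Thbs2) and chr13:92794819-92795068 (minus strand, Thbs4). Entries were matched for 6 of the 10 genes (also Sparc and Bgn), and the entry nearest to the annotated gene start was used where a gene had 2. The Sparc entry lay 3103 bases from the annotated gene start, so its window falls inside the annotated gene. The TATA box letters TATAAA were present in 3 of these 6 windows and in 12.4% of all 32851 windows of the same length. In Postn they began 26 bases before the start, and in Tnc and Thbs2 126 bases before it, on the minus strand for Thbs2. The TEAD letters GGAATG were present in 1 of the 6 windows, that of Thbs4, as 2 matches that share 1 base, and in 12.6% of all windows. The AP-1 letters TGANTCA and the CArG box were found in 0 of the 6 windows and in 6.75% and 1.47% of all windows, which says only that these letters are not in these windows. No match overlapped a match to another of these motifs. In the gene annotation of the same build, Fn1 lies at chr1:71585520-71653200, Thbs1 at chr2:118111876-118127133, Sparc at chr11:55394500-55423183, Loxl1 at chr9:58287738-58313186 and Bgn at chrX:73483602-73495933.

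Values are FPKM, fragment counts divided by gene length and by a scaling factor of each library. Levels can thus be set side by side between genes. Median-ratio scaling left these values almost unchanged, with day 3 log2 rises of the 10 genes of 2.12 to 4.69 with and without it. Such scaling holds the median over all genes near 0, so the all-gene medians given below are largely set by it. The steps between low values implied 14174079 to 18823229 reads on genes per muscle library and 14230094 to 29567085 per cell library. Mettl3 stood at 4.68 to 5.65 FPKM in the 4 CTRL libraries and at 0.0805 to 0.331 FPKM in the 4 Cas9M3 libraries, so the labels and the targeted gene matched. In muscle, both day 0 libraries, both day 10 libraries and replicate 2 of day 3 carried Xist at 5.77 to 10.0 FPKM with Y-linked genes at or near 0, whereas the other 5 libraries had Xist at 0.152 FPKM or less and expressed Y-linked genes, although the methods name male mice. The sex of the source therefore cannot be told apart from the day for days 1 and 5 against day 0 and for day 10 against day 5, and the 2 day 3 libraries came from different sources. In the cell table, the row Gm23935 led replicate 2 of CTRL day 0 (37.9% of all FPKM), Cas9M3 day 0 (11.7%) and Cas9M3 day 3 (15.7%). The row CT010467.1 led replicate 2 of CTRL day 3 (9.42%), while the mitochondrial gene mt-Co1 led every replicate 1 library at 2.80% to 3.79%. In muscle Gm23935 led every library, at 21.5% to 30.2%.

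Before injury, Sparc, a collagen-binding glycoprotein, was the most abundant of the 10 genes, at 113 ± 74.3 FPKM (SD, n = 2), and did not overlap the next gene. Thbs4, a thrombospondin of tendon and muscle attachment sites, followed at 19.6 ± 14.5 FPKM. Bgn (10.2 ± 5.96), Fn1 (8.84 ± 7.05), Postn (8.78 ± 8.93) and Loxl1 (5.85 ± 2.56) formed a middle group in which each gene's range overlapped that of its neighbour. Thbs1 (2.68 ± 1.19), Tnc (2.11 ± 2.31), Lox (1.39 ± 0.672) and Thbs2 (1.11 ± 0.778) were lowest and also overlapped one another in turn. On day 3 Sparc still led at 436 ± 52.7 FPKM, and Postn moved from rank 5 to rank 2 at 121 ± 25.4 FPKM, where it overlapped Thbs4 (98.8 ± 37.2). Thbs1 was the lowest of the 10 genes on day 3, at 16.7 ± 0.839 FPKM. On day 10 the order was again Sparc (215 ± 107) before Thbs4 (55.1 ± 14.4), which overlapped neither neighbour.

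**Figure D1:**
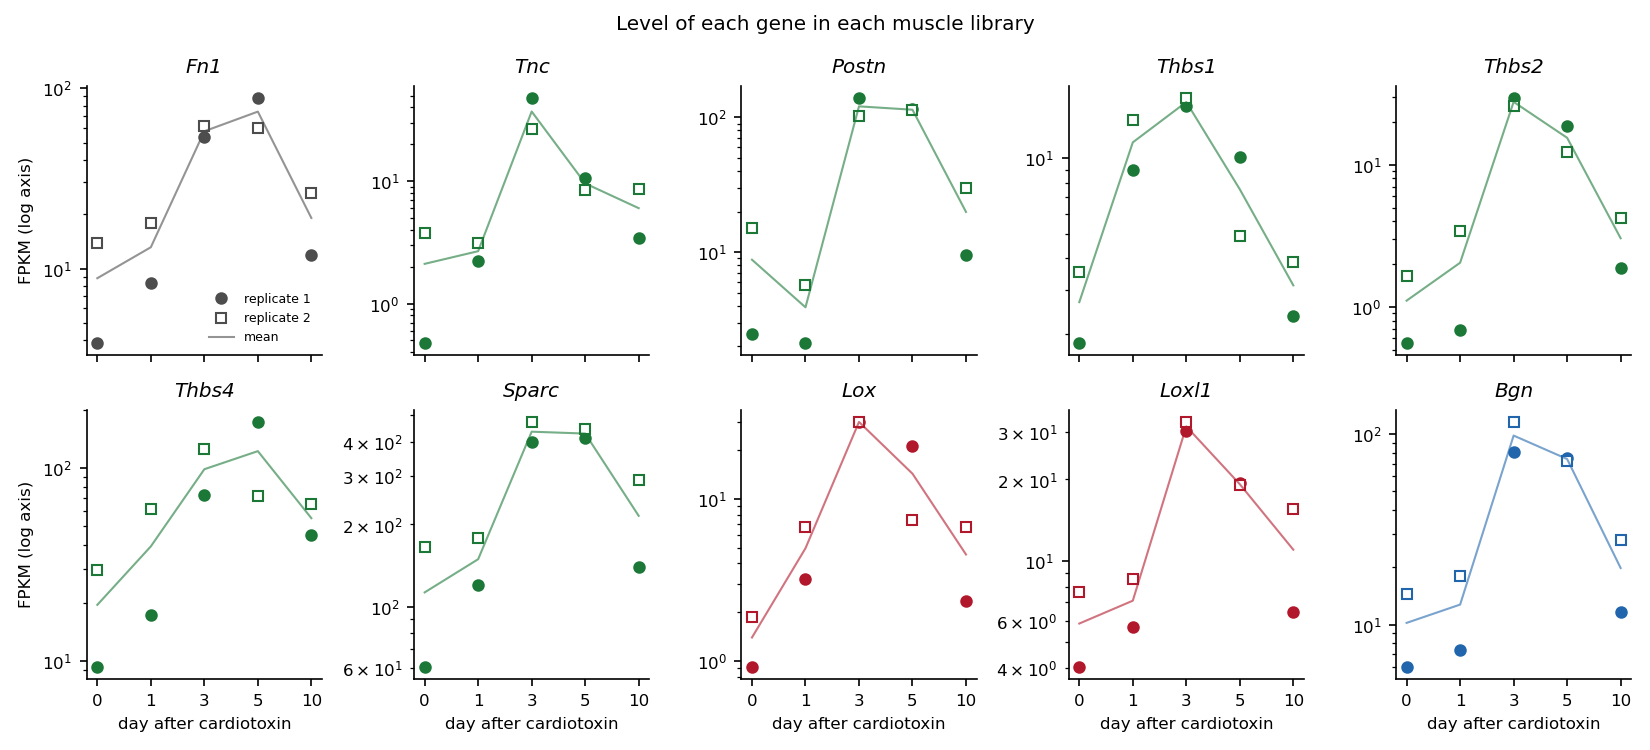
Each panel plots 1 gene's FPKM on a log axis against the day after cardiotoxin, with replicate 1 as filled circles, replicate 2 as open squares and the mean of both as a line. All 10 genes lie higher on days 3 and 5 than on day 0, and in 8 of them the mean is highest on day 3.

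On the first day after injury Thbs1 was the gene of the 10 that passed the test against day 0. Thbs1, a thrombospondin that activates latent TGF-β and is stored in platelets, went from 1.84 and 3.51 FPKM on day 0 to 8.96 and 14.2 FPKM on day 1. Both day 1 libraries lay above both day 0 libraries, and the gene rose by 2.10 on the log2 scale (SE 0.441, limma adjusted p = 0.0408). It was the only 1 of the 10 genes called higher, against 3.53% of all 16753 genes tested. Lox was next, with 0.918 and 1.87 FPKM before injury and 3.19 and 6.71 FPKM a day later, again without overlap, with a log2 difference of 1.74 (SE 0.660, adjusted p = 0.143). Postn lay lower in the mean, at 2.11 and 5.68 FPKM against 2.47 and 15.1 FPKM, and overlapped (log2 difference -0.81, adjusted p = 0.588). The other 7 genes overlapped as well, with log2 differences of 0.31 to 0.96.

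The day 1 call of Thbs1 was lost when any of the 4 libraries compared was left out, so that no gene of the 10 was then called. The platelet and megakaryocyte marker Pf4 stood at 1.67 and 4.26 FPKM on day 0 and 30.0 and 29.2 FPKM on day 1. The summed level of the 5 platelet markers went from 1.99 to 5.41 FPKM on day 0 to 31.8 to 33.6 FPKM on day 1. Of the 3 markers tested 2 were called higher, beside 3.53% of all genes. The part of platelets in the Thbs1 level was not tested. The lincRNA Gm29233 lies on the other strand of Thbs1 and shares 208 exon bases with it (3.43% of the Thbs1 exon bases), and since the counting is not stated to use strand, reads there cannot be told apart.

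On day 3, the day of the largest change, all 10 genes were higher than on day 0. Every day 3 library lay above every day 0 library. Here and below, the share of all genes whose libraries lay apart in this way was not counted, so such counts have no background. The median log2 difference of the 10 was 3.16, beside 0.0075 over all genes tested, and all 10 passed the test at adjusted p-values of 0.00156 to 0.0276. In the same comparison 24.5% of all genes were called higher. The log2 rises ran from 2.12 for Sparc to 4.69 for Thbs2. Their size rested on the day 0 libraries, since the rises ran from 1.39 to 3.98 without day 0 replicate 1 and from 2.84 to 5.95 without day 0 replicate 2.

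Fibronectin went from 3.85 and 13.8 FPKM to 53.9 and 61.6 FPKM. It rose by 2.96 on the log2 scale (SE 0.640, limma adjusted p = 0.00713), a factor of 7.78. The day 3 libraries lay close together, and the day 0 libraries stood further apart, so that the log2 rise was 2.05 without day 0 replicate 1 and 3.87 without day 0 replicate 2.

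Among the matricellular genes, Thbs2, a thrombospondin linked to collagen fibril assembly, went from 0.556 and 1.66 FPKM to 29.3 and 26.0 FPKM. Its log2 rise of 4.69 (SE 0.746, limma adjusted p = 0.00197) was the largest of the 10 in this fit, a factor of 25.8, while Postn led with a pseudocount of 1 (4.01 against 3.82 for Thbs2) and Tnc led without day 0 replicate 2 (5.95 against 5.40) and without day 3 replicate 2. Tenascin C (Tnc), which is sparse in intact muscle and marks wounds and tendon junctions, went from 0.475 and 3.75 FPKM to 47.6 and 26.6 FPKM. That was a log2 rise of 4.58 (SE 0.824, limma adjusted p = 0.00325), with the day 0 libraries 7.89 times apart. Periostin (Postn), which binds collagen and supports its crosslinking, went from 2.47 and 15.1 FPKM to 139 and 103 FPKM (log2 rise 4.26, SE 0.868, limma adjusted p = 0.00556).

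The other matricellular genes, Thbs1, Thbs4 and Sparc, had smaller rises. Thbs1 reached 16.2 and 17.3 FPKM on day 3, a log2 rise of 2.67 over day 0 (SE 0.441, limma adjusted p = 0.0023). Thbs4 went from 9.32 and 29.8 FPKM to 72.5 and 125 FPKM, with a log2 rise of 2.51 (SE 0.759, limma adjusted p = 0.0276). Sparc, already abundant, went from 60.4 and 166 FPKM to 399 and 474 FPKM (log2 rise 2.12, SE 0.499, limma adjusted p = 0.0102). The rise of Sparc was the smallest of the 10 in this fit, a factor of 4.34, but with quantile normalization it was 2.99 on the log2 scale and Loxl1 had the smallest, at 2.67.

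Both crosslinking enzymes rose. Lox went from 0.918 and 1.87 FPKM to 29.8 FPKM in each day 3 library, a log2 rise of 4.40 (SE 0.660, limma adjusted p = 0.00156), which is a factor of 21.1. Loxl1 went from 4.04 and 7.65 FPKM to 30.2 and 32.7 FPKM, a log2 rise of 2.48 (SE 0.435, limma adjusted p = 0.00297). Loxl1 was the more abundant of these enzymes before injury, without overlap, and on day 3 still lay just above Lox. Bgn went from 6.01 and 14.4 FPKM to 80.6 and 116 FPKM (log2 rise 3.36, SE 0.582, limma adjusted p = 0.0028).

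**Figure D2:**
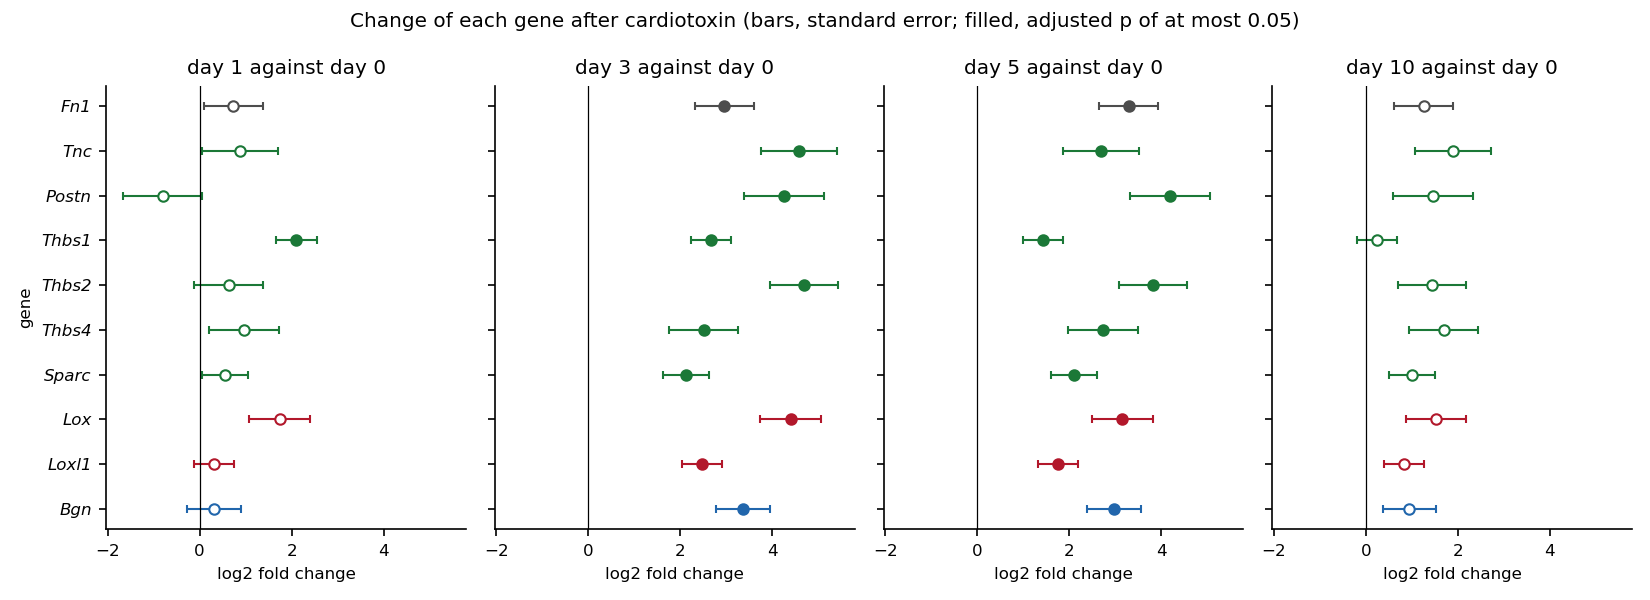
Each panel plots the log2 fold change of the 10 genes on 1 day against day 0, with the standard error as a bar and filled points where the adjusted p was at most 0.05. Filled points number 1 on day 1, 10 on days 3 and 5, and 0 on day 10.

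Leaving out 1 library at a time left 8 to 10 of the 10 genes called on day 3, and the calls lost were those of Thbs4 (without day 0 replicate 1 or without either day 3 library) and Sparc (without day 0 replicate 1 or day 3 replicate 2). With a term for the libraries that carry Xist in the fit to all libraries, the day 3 difference rests on replicate 2 alone, which is assumed to vary like the other groups, and the log2 differences were 2.24 to 4.60, all positive. In whole tissue, more cells of a type and more RNA per cell cannot be told apart in any of these changes.

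Markers of other cell types were counted in the same comparison, where 24.5% of all genes tested were called higher and 24.3% lower. All 8 macrophage markers tested rose on day 3 and their summed level went from 49.0 to 99.1 FPKM on day 0 to 1581 to 1621 FPKM. All 7 markers of myogenic cells and 4 of 5 proliferation markers rose, and all 8 mature fibre markers fell (2 of 8 with quantile normalization), with their sum going from 58392 to 66574 FPKM down to 13752 to 17674 FPKM. Of the 8 fibroblast and fibroadipogenic markers, Pdgfra (log2 1.49, adjusted p = 0.0258) and Mfap5 (log2 1.88, adjusted p = 0.0482) rose, a share near that of all genes. The sum of that list was 164 to 189 FPKM on day 0 and 188 to 272 FPKM on day 3. Of the 4 tendon markers only Scx rose (log2 2.52, adjusted p = 0.00641), again a share near that of all genes. The sum of the tendon markers went from 5.34 to 13.7 FPKM to 42.1 to 54.9 FPKM. Of the 5 endothelial markers 2 fell, of the 4 mural cell markers 2 rose and 1 fell, and of the 3 platelet markers tested 1 rose. No list summed to 0 in any muscle library, although 3 of the 5 platelet markers were at 0 in day 0 replicate 1, and their part in the levels of the 10 genes was not tested.

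**Figure D3:**
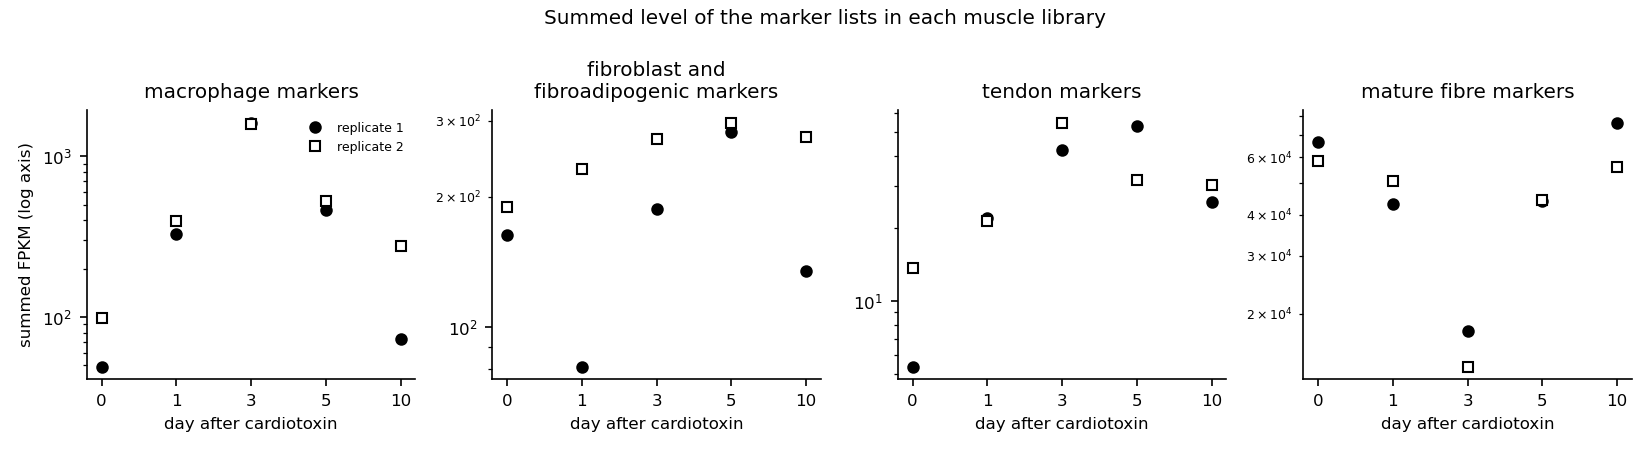
Each panel plots the summed FPKM of 1 marker list on a log axis against the day after cardiotoxin, with replicate 1 as filled circles and replicate 2 as open squares. Macrophage markers are highest on day 3 at 1581 to 1621 FPKM, and fibre markers lowest at 13752 to 17674 FPKM.

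Between day 1 and day 3, 8 of the 10 genes were called higher, beside 14.5% of all genes called higher. All 10 lay higher without overlap, a count that has no background over all genes. Postn showed the largest step, from 2.11 and 5.68 FPKM to 139 and 103 FPKM (log2 rise 5.06, SE 0.868, limma adjusted p = 0.0064). Thbs2 (4.06), Tnc (3.70), Bgn (3.05), Lox (2.66), Fn1 (2.23), Loxl1 (2.16) and Sparc (1.57) rose as well on the log2 scale. Thbs1, the 1 gene called on day 1, differed by 0.57 on that scale (adjusted p = 0.362) and Thbs4 by 1.55 (adjusted p = 0.158). Leaving out a single library gave 3 calls (day 1 replicate 1 or day 3 replicate 1), 1 call (day 3 replicate 2) or 7 calls (day 1 replicate 2). With a term for the libraries that carry Xist it was 1.

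On day 5 all 10 genes were called higher than on day 0, at limma adjusted p-values of 0.0161 to 0.0491, beside 12.9% of all genes called higher. They were also still all above day 0 without overlap, a count that has no background over all genes. Postn, at 115 and 112 FPKM, was 4.19 above day 0 on the log2 scale (SE 0.868). Fn1 reached its highest mean of all days, with 88.0 and 60.4 FPKM, and so did Thbs4, with 174 and 71.4 FPKM, and both overlapped their day 3 values. The call of every gene in this comparison was lost without day 0 replicate 1, without either day 5 library, and with a term for the libraries that carry Xist, which left 0 of 10 called in each case. With the Xist term 0 of all genes were called in this comparison, against 4267 without it. Its size came only from the 2 day 3 libraries, since no other day held both kinds. It therefore does not separate sex from day here. The log2 differences with that term were 1.54 to 3.76, against 1.44 to 4.19 without it. With any 1 library left out they lay between 0.92 and 5.47. With the spread estimated from the 4 libraries of days 0 and 5 alone, 0 of 10 passed at adjusted p-values of 0.0502 to 0.148.

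Against day 3, none of the 10 genes was called lower on day 5, beside 5.46% of all genes, and 1 had an unadjusted limma p under 0.05. The genes stood differently against their own day 3 values. Tnc lay below its day 3 range, at 10.7 and 8.53 FPKM, as did Thbs1, at 10.1 and 4.90 FPKM, and Lox, at 21.2 and 7.37 FPKM, with log2 differences of -1.89 (adjusted p = 0.176), -1.23 (adjusted p = 0.11) and -1.25 (adjusted p = 0.257). Thbs2, Loxl1 and Bgn also lay below their day 3 libraries without overlap. Postn, Sparc, Fn1 and Thbs4 overlapped, with log2 differences of -0.07, -0.02, 0.34 and 0.23. In the fit to the libraries of days 3 and 5 alone, Tnc (adjusted p = 0.0418) and Loxl1 (adjusted p = 0.0246) were called lower.

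By day 10, 7 of the 10 genes were called lower than on day 3, beside 18.8% of all genes called lower. All 10 lay below day 3 without overlap, a count that has no background over all genes. Thbs2 fell by 3.25 on the log2 scale, to 1.89 and 4.19 FPKM (SE 0.746, limma adjusted p = 0.0123). Lox fell by 2.87 to 2.34 and 6.72 FPKM, Postn by 2.80 to 9.59 and 30.2 FPKM, Tnc by 2.68 to 3.45 and 8.60 FPKM, Thbs1 by 2.43 to 2.37 and 3.87 FPKM, Bgn by 2.41 to 11.7 and 28.0 FPKM, and Loxl1 by 1.64 to 6.44 and 15.5 FPKM. Fn1 (-1.70, adjusted p = 0.0708), Sparc (-1.11, adjusted p = 0.117) and Thbs4 (-0.81, adjusted p = 0.429) did not pass. The count of 7 became 2 when day 3 replicate 1 was left out, 1 when day 3 replicate 2 or day 10 replicate 1 was, and 2 with a term for the libraries that carry Xist.

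Against day 5, 9 of the 10 genes lay lower on day 10 without overlap, the exception being Tnc. None was called, beside 0.161% of all genes, and the share of all genes without overlap was not counted. The days differ in the Xist and Y-linked genes of their libraries. Of the 10, 6 had an unadjusted limma p under 0.05. The median log2 difference was -1.41, and Postn had the largest at -2.74 (adjusted p = 0.121).

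Against day 0, no gene of the 10 passed the test on day 10. None was called by limma, beside 0.00597% of all genes (1 of 16753), and 0 of the 10 had an unadjusted p under 0.05, against 1697 of all genes. All 10 differences were positive, with a median of 1.35 on the log2 scale beside 0.0015 over all genes. Tnc had the largest, at 1.90 (SE 0.824, adjusted p = 0.496), and Thbs1 the smallest, at 0.24 (SE 0.441, adjusted p = 0.868). Thbs4, Lox and Thbs2 did not overlap, with Thbs4 at 44.9 and 65.2 FPKM on day 10 against 9.32 and 29.8 FPKM on day 0. The share of all genes without overlap was not counted here either. The sign of the Thbs1 difference turned without day 0 replicate 1 (-0.21) and without day 10 replicate 2 (-0.10). The 10 differences ran from -0.21 to 1.05 without day 0 replicate 1 and from 0.69 to 3.27 without day 0 replicate 2. Between replicates the 10 genes shifted together, by a median of 1.44 on day 0 and 1.19 on day 10. Their common sign is therefore not 10 separate results.

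The spread that limited these tests had a direction. On days 0, 1 and 10, replicate 2 was higher than replicate 1 for all 10 genes, with a median log2 difference of 1.44, 1.07 and 1.19. On day 3 this held for 7 of the 10 and on day 5 for 1 of the 10, with medians of 0.11 and -0.43. Among all genes tested, 46.5% to 48.4% were higher in replicate 2 on these days and the medians were within 0.0159 of 0. Tnc differed most on day 0, at 0.475 and 3.75 FPKM, and Postn came next at 2.47 and 15.1 FPKM. In replicates 1 and 2 the summed tendon markers were at 5.34 and 13.7 FPKM on day 0, 22.1 and 21.4 FPKM on day 1 and 25.8 and 30.1 FPKM on day 10. The summed fibroblast and fibroadipogenic markers were at 164 and 189 FPKM, 81.0 and 232 FPKM, and 135 and 275 FPKM on the same days. Their part in the replicate differences was not tested.

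**Figure D4:**
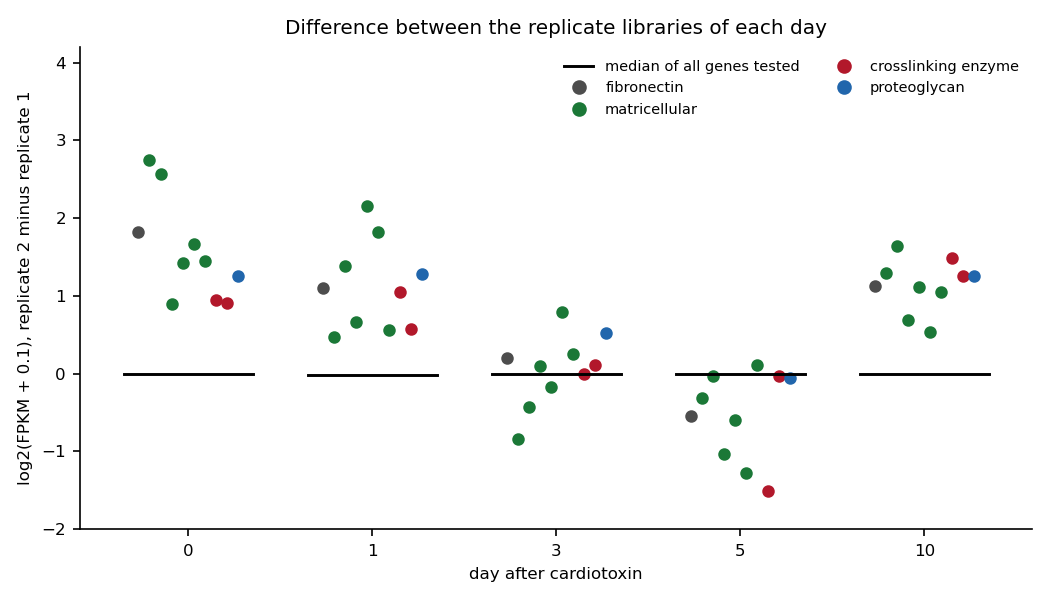
The plot gives, for each day, the difference in log2(FPKM + 0.1) between replicate 2 and replicate 1 for the 10 genes, coloured by role, with the median over all genes tested as a black bar. All 10 points lie above 0 on days 0, 1 and 10, while the medians of all genes lie within 0.0159 of 0.

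Across the 10 muscle libraries the genes varied together, as a description of libraries that share days and tissue. The range from lowest to highest library was widest for Tnc (100.2-fold), Postn (65.7-fold) and Thbs2 (52.8-fold) and narrowest for Sparc (7.84-fold) and Loxl1 (8.09-fold). Pearson's r on log2 values between pairs of the 10 genes ran from 0.44 for Postn and Thbs1 to 0.99 for Thbs2 and Bgn. Among 5854 genes with a mean of at least 5 FPKM, those most like Postn were the collagen genes Col5a1 (r = 0.995), Col16a1 and Col5a2, and those most like Fn1 were Col1a2 (r = 0.972), Col1a1 and Col5a2. Bgn was most like Mrc2 (r = 0.992), an endocytic collagen receptor, Serpinf1 and Col16a1. Loxl1 was most like Tmem119 (r = 0.993), Mxra7 and Olfml2b, and Thbs2 most like Rnase4 (r = 0.987), Mrc2 and Olfml2b. Sparc was most like Crtap (r = 0.982), a subunit of the collagen prolyl 3-hydroxylase complex, C1qtnf6 and Col1a1.

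Thbs4, Tnc, Thbs1 and Lox had other neighbours. Thbs4 was most like Fmod (r = 0.958) and Kera (r = 0.937), small leucine-rich proteoglycans found in tendon, and Wdr13. Tnc was most like Crip2 (r = 0.979), Dpysl3 and Dbn1, which act on the cytoskeleton. Thbs1 was most like Gm29233 (r = 0.972), the lincRNA that overlaps it, and Vwa5a. Lox was most like Gm16096 (r = 0.974), Rab31 and Leprot.

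Other genes of the same families followed in part on day 3, with the lists chosen when earlier results of these data were known. Of 15 other matricellular genes tested, 7 rose and 0 fell, with a median log2 difference of 1.61, where 24.5% of all genes tested rose and 24.3% fell. The osteopontin gene Spp1 rose most, by 5.13 (SE 1.15, adjusted p = 0.00838), and Tnn, Wisp1, Comp, Tgfbi, Wisp2 and Spock2 were the others, while the CCN genes Cyr61 (0.98, adjusted p = 0.119) and Ctgf (1.61, adjusted p = 0.0557) and the Sparc relative Sparcl1 (-0.74, adjusted p = 0.221) did not pass. Of 20 genes for collagen crosslinking and maturation, 15 rose and 0 fell, with a median of 1.82. P4ha3, a collagen prolyl 4-hydroxylase subunit, rose most, by 4.51 (SE 0.659, adjusted p = 0.00139), the lysyl oxidases Loxl2 (2.04) and Loxl3 (2.29) rose too, and Loxl4 (1.17, adjusted p = 0.121) did not pass. Of 9 other small leucine-rich proteoglycans, Ogn (2.96, adjusted p = 0.0256) and Aspn (2.80, adjusted p = 0.0115) rose, a share near that of all genes, and decorin (Dcn) did not pass at 0.83 (adjusted p = 0.345).

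Of 15 receptors for these proteins, 10 rose and 1 fell on day 3, beside the 24.5% and 24.3% of all genes, with a median log2 difference of 1.37. The scavenger receptor Stab1, which takes up Sparc, rose most (2.67, adjusted p = 0.000556). Cd47 rose by 1.50 (adjusted p = 0.000543), while the other thrombospondin receptor Cd36 fell by 1.83 (adjusted p = 0.00945). On day 10 against day 3, 7 of the 15 matricellular genes, 11 of the 20 crosslinking and maturation genes and 8 of the 15 receptors were lower, beside 18.8% of all genes, 0 of the 9 proteoglycans were, and 0 genes of these lists were higher.

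In C2C12 cells the levels were of another order. Sparc stood at 849 to 1611 FPKM over the 8 libraries and Bgn at 396 to 979 FPKM, and Lox, at 183 to 479 FPKM, ranked 3 among the 10 genes in CTRL cells in growth medium, against 9 in day 0 muscle. The 2 tables were normalized separately, so these levels are set side by side without a test. Thbs4 was listed at 0 in 7 of the 8 libraries and at 0.0193 FPKM, or 2 implied reads, in Cas9M3 day 0 replicate 1. A count of 3 reads, the floor used here, would correspond to 0.0287 to 0.0945 FPKM of Thbs4 in these libraries, for counting error only.

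**Figure D5:**
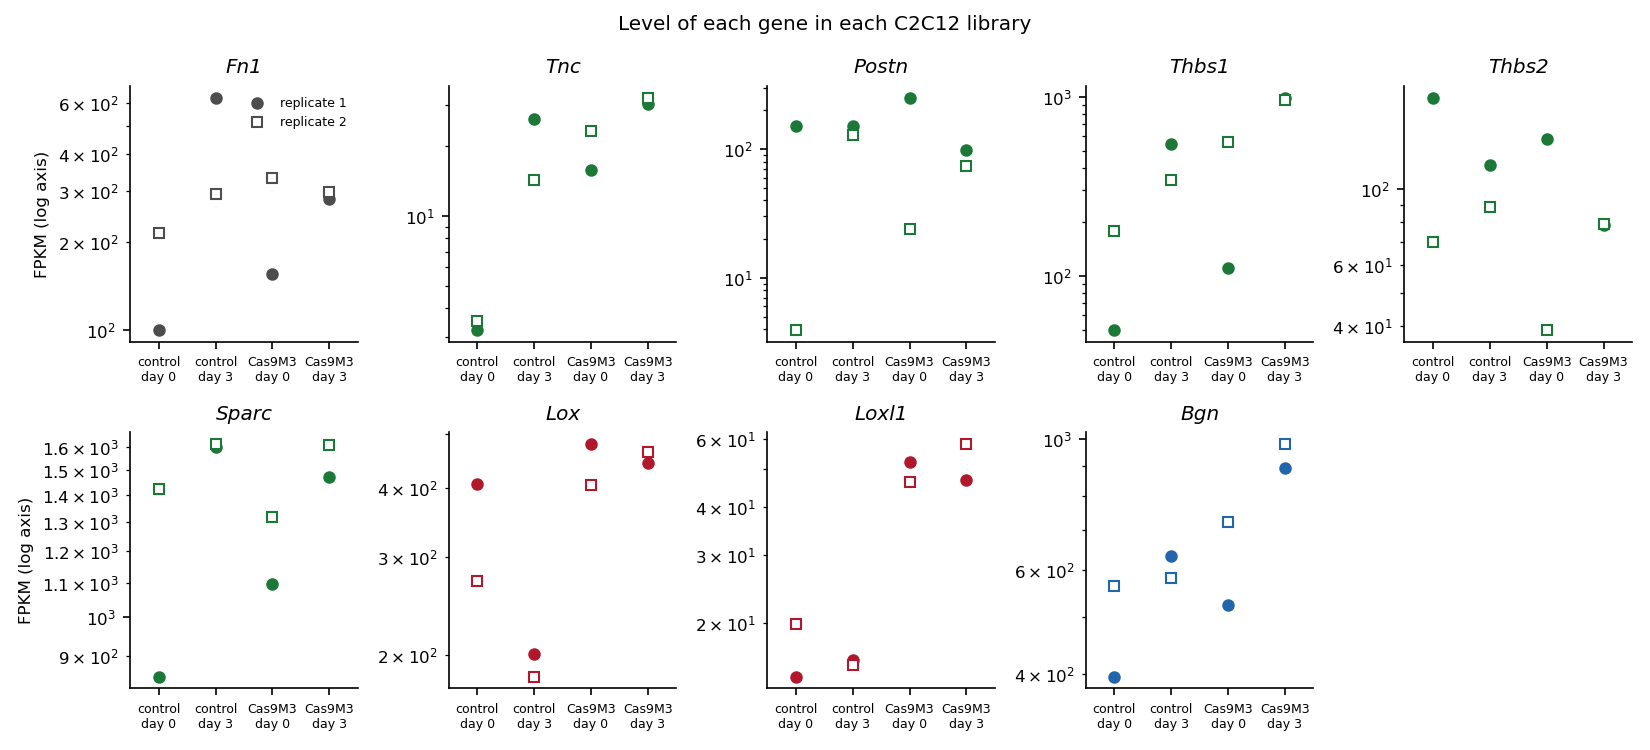
Each panel plots 1 gene's FPKM on a log axis in the 4 cell groups, with replicate 1 as filled circles and replicate 2 as open squares, and leaves out Thbs4. Loxl1 lies between 46.5 and 58.2 FPKM in the Cas9M3 libraries and between 14.5 and 19.9 FPKM in the CTRL libraries.

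The replicates agreed poorly for some genes in growth medium. Postn was at 152 and 3.93 FPKM in CTRL cells and at 251 and 24.2 FPKM in Cas9M3 cells on day 0, Thbs2 at 184 and 70.1 FPKM and at 139 and 38.9 FPKM. Thbs1 went the other way, at 49.6 and 178 FPKM and at 111 and 557 FPKM. On day 3 the replicates of Cas9M3 cells lay much closer, for example 988 and 954 FPKM for Thbs1. The myogenic regulator Myog differed between the same libraries, at 11.1 and 2.70 FPKM in CTRL cells on day 0 and at 12.7 and 0.182 FPKM in Cas9M3 cells on day 0, and its part was not tested.

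Differentiation of control cells raised 1 of the 9 genes tested, beside 0.767% of all 13824 genes tested. Tnc went from 3.21 and 3.53 FPKM in growth medium to 26.2 and 14.3 FPKM on day 3, a log2 rise of 2.49 (SE 0.325, limma adjusted p = 0.0354). Fn1, at 100.0 and 216 FPKM and then 626 and 293 FPKM, and Thbs1, at 49.6 and 178 FPKM and then 542 and 344 FPKM, did not overlap either, with log2 differences of 1.54 (adjusted p = 0.238) and 2.20 (adjusted p = 0.264). Sparc (0.54) and Bgn (0.36) also lay higher without overlap on that scale. Lox lay lower on day 3, at 201 and 183 FPKM against 407 and 272 FPKM (log2 difference -0.79, adjusted p = 0.217). The Tnc call was lost without CTRL day 0 replicate 2 and without either CTRL day 3 library, and the count was 2 without CTRL day 0 replicate 1. With the replicate number as a block, 411 instead of 158 genes were called in all and Tnc was still the 1 member called.

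Before differentiation, no gene passed the test between Cas9M3 and CTRL cells. Mettl3 itself, at 0.331 and 0.118 FPKM in Cas9M3 cells against 4.70 and 5.65 FPKM in CTRL cells, was not called either. The lack of calls therefore does not show that nothing changed. Of the 9 genes 0 were called by limma, as were 0% of all genes, while 2 of the 9 and 1244 of all genes had an unadjusted p under 0.05. These 2 were Tnc, at 15.8 and 23.2 FPKM in Cas9M3 cells against 3.21 and 3.53 FPKM in CTRL cells (log2 difference 2.47, SE 0.325, adjusted p = 0.188), and Loxl1, at 52.3 and 46.5 FPKM against 14.5 and 19.9 FPKM (log2 difference 1.53, SE 0.215, adjusted p = 0.211). Neither overlapped between the groups. The other 7 genes did, with log2 differences of -0.62 for Thbs2 to 1.66 for Postn.

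On day 3 of differentiation 1 of the 9 genes was higher in Cas9M3 cells, beside 1.29% of all genes. Loxl1 was at 46.8 and 58.2 FPKM in Cas9M3 cells and at 16.1 and 15.6 FPKM in CTRL cells, a log2 rise of 1.72 (SE 0.215, limma adjusted p = 0.0262), which is a factor of 3.29. Lox, the other crosslinking enzyme, was at 444 and 463 FPKM against 201 and 183 FPKM, without overlap, and missed the threshold (log2 difference 1.24, SE 0.275, adjusted p = 0.0837), although it passed in the fit to these 4 libraries alone (adjusted p = 0.0112). Thbs1 (988 and 954 FPKM against 542 and 344 FPKM), Bgn (892 and 979 FPKM against 634 and 581 FPKM) and Tnc (30.5 and 32.4 FPKM against 26.2 and 14.3 FPKM) also lay higher without overlap. Postn (98.9 and 74.5 FPKM against 150 and 129 FPKM) and Thbs2 (78.3 and 79.3 FPKM against 117 and 88.6 FPKM) lay lower without overlap. The share of all genes without overlap in this comparison was not counted.

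Only Loxl1 of these passed the test, and its call was lost when any 1 of the 4 libraries was left out, at adjusted p-values of 0.244 to 0.298 and log2 differences of 1.56 to 1.87. The rule of a log2 fold change of at least 2 would not call it. With the replicate number as a block, 505 instead of 274 genes were called in all and Loxl1 was still the 1 member called. In these libraries Myog was at 3.50 and 2.28 FPKM in Cas9M3 cells and at 89.1 and 83.3 FPKM in CTRL cells. The summed mature fibre markers were at 10.3 to 13.3 FPKM and 420 to 473 FPKM in the same order. The paper reports the other direction, with more MyHC protein after Mettl3 inhibition. On day 3 it also reports more myotubes and higher RT-qPCR levels of fusion genes. The reason for this difference, and the part of Myog and the fibre markers in the values of the 9 genes, was not tested.

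From growth medium to day 3 in Cas9M3 cells, none of the 9 genes was called by limma, beside 0.0289% of all genes (4 genes, and 9 with the replicate number as a block), and 0 of the 9 had an unadjusted p under 0.05, against 1748 of all genes. Thbs1 had the largest difference, at 1.97 on the log2 scale (SE 0.880, adjusted p = 0.437). The difference between the repression effect on day 3 and that on day 0 was tested directly, and 0 of the 9 genes and 0% of all genes passed, with 1 of the 9 and 1198 of all genes at an unadjusted p under 0.05. That gene was Tnc, whose excess in Cas9M3 cells was 2.47 in growth medium and 0.70 on day 3 on the log2 scale (difference -1.78, SE 0.460, adjusted p = 0.371). For Loxl1 the effects were 1.53 and 1.72, with a difference of 0.18 (SE 0.304, adjusted p = 0.89).

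The related genes gave few calls in the cells, where 1.29% of all genes were higher and 0.687% lower in Cas9M3 than in CTRL cells on day 3, and 0.767% higher and 0.376% lower on day 3 than on day 0 in CTRL cells. In Cas9M3 against CTRL cells on day 3, 3 of 14 other matricellular genes rose, Smoc1 (2.75, adjusted p = 0.0468), which stayed under 1 FPKM in all 4 libraries, Sparcl1 (2.33, adjusted p = 0.0187) and Spock2 (1.88, adjusted p = 0.0449). Of 19 crosslinking and maturation genes 1 fell, the transglutaminase Tgm2, at 9.69 and 8.33 FPKM against 58.3 and 49.3 FPKM (-2.56, adjusted p = 0.022). Of 8 proteoglycans none was called by limma, and of 12 receptors Itgb5 rose (1.15, adjusted p = 0.0339). In differentiating CTRL cells Tgm2 (2.92, adjusted p = 0.0206) and Wisp1 (2.88, adjusted p = 0.0206) rose and Sparcl1 fell by 2.69 (adjusted p = 0.0143). Of the macrophage markers Adgre1, C1qa, C1qb and Itgam were at 0 in all 8 cell libraries.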

How the data were processed

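The RNA of tibialis anterior muscle (10 libraries) and of C2C12 cells (8 libraries) was sequenced by the study, and 8 further libraries of the series were not analysed here. Libraries were made with a SMARTer kit per the labels, and per the methods the authors aligned reads with HISAT2 to GRCm38, counted them with featureCounts on Ensembl genes and deposited FPKM values computed with DESeq2. Whether counting used strand is not given in the sources used here. The 2 FPKM tables were normalized separately and tested separately. Low values were whole multiples of 1 read for at least 97.2% of muscle and 98.92% of cell values (tolerance 0.05 reads), and 1 read on 1 kb was worth 0.0494 to 0.0817 and 0.0315 to 0.104 FPKM. These read numbers were used to give depth and floors, for counting error only.

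Genes that reached 0.5 FPKM in 2 or more libraries entered the test, limma 3.58.1 in R 4.3.3 (moderated test with a mean trend), on log2(FPKM + 0.1), with all groups of a table in 1 fit and Benjamini-Hochberg adjustment over all genes tested. Fold changes are on that scale, which understates those of low genes. The threshold for a call was an adjusted p of 0.05. All p-values are two-sided. Beside the 10 genes, the text names from each other gene list the called genes with the largest rise and fall and those needed to describe the list, and for each of the 10 the 3 genes outside the set with the highest Pearson r over 10 libraries, of which 1 is not reported here. The 10 genes and all lists were chosen with earlier results of these data known. On simulated data with the muscle means, the day 3 against day 0 test recovered 141 of 200 genes changed by 2 on the log2 scale and 175 of 200 changed by 4, with 6 and 12 unchanged genes called among 16753. For Cas9M3 against CTRL cells on day 3 it recovered 87 and 162 of 200, with 6 and 12 unchanged genes called among 13824. The simulated noise was independent between genes and only 200 genes were changed, whereas 8179 genes were called in muscle on day 3 against day 0. Recovery in the real data may therefore differ.

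In the cells the replicate numbers of the labels paired the libraries, since all 6 correlations of deviations between groups lay between 0.278 and 0.680. The main fit of the cells, which gave the p-values in the Results, left this pairing out. A fit with the replicate number as a block is given as an alternative. Alternatives changed the pseudocount (1 or 0.01), the filter (none or 1 FPKM), the scaling (median-ratio or quantile), the samples in the fit, the threshold (a log2 fold change of at least 2), added a replicate block or a term for the libraries that carry Xist, or left out each library in turn. Upstream sequences were read from RefSeq.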

Additional observations from a re-analysis of the deposited data

How the results depend on the processing

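The day 3 rise of the 10 genes kept its direction under all alternatives run, and 8 to 10 of the 10 were called in each. The day 5 count of 10 members was 5 without the filter and 0 with only the groups compared or with an Xist term (a term for the libraries that carry Xist). For day 1, 0 members were called without the filter, with quantile normalization, with only the groups compared or with an Xist term. For day 3 against day 1 an Xist term left 1 member and for day 10 against day 3 it left 2, and for day 5 against day 3 only the groups compared gave 2. In Cas9M3 against CTRL cells on day 3 the fold threshold gave 0 members and only the groups compared gave 2. In differentiating CTRL cells 0 were called without the filter or with only the groups compared. The Xist term takes its size from the 2 day 3 libraries alone, so it does not separate sex from day on days 1 and 5. The cause of these shifts was not tested.

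The replicate number, used as a block, paired the cell libraries and changed no other call of the 9 genes there. In muscle same-numbered libraries share only a number (correlations of -0.0187 to 0.211 between deviations), and with that replicate block the day 5 call of Thbs1 was lost (adjusted p = 0.0534), Fn1 (adjusted p = 0.0388) and Sparc (adjusted p = 0.036) were called on day 10 against day 3, and Bgn (adjusted p = 0.0429) was the 1 member called on day 10 against day 5.

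The sign turned for Sparc on day 5 against day 3 (0.10 with an Xist term), Tnc on day 10 against day 5 (0.044 with an Xist term), Sparc in Cas9M3 against CTRL cells on day 3 (0.11 with quantile normalization), Thbs2 in differentiating CTRL cells (0.12 with quantile normalization) and Bgn in the day 3 minus day 0 repression effect (-0.57 with quantile normalization), none of them called. Over 1071 values of the members under such alternatives, 998 kept direction and side of the threshold, 60 lost a call, 8 gained one and 5 turned. Over 536 values with 1 library left out these numbers were 411, 81, 1 and 43. The 1071 values include 125 with median-ratio scaling, all of which kept direction and side. That scaling left the deposited values almost unchanged, so those 125 could hardly have moved and are no check.

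With 1 library left out, members called ranged from 0 to 0 on day 1, 8 to 10 on day 3, 0 to 10 on day 5 and 0 to 0 on day 10 against day 0, 1 to 7 on day 3 against day 1, 0 to 0 on day 5 against day 3, 1 to 7 on day 10 against day 3 and 0 to 0 on day 10 against day 5. In the cells they ranged from 0 to 0 in Cas9M3 against CTRL cells on day 3, 0 to 2 in differentiating CTRL cells, and were 0 throughout in the other comparisons. With 1 library left out, the sign of these log2 differences, none of which was called, turned, with the following lowest and highest values. In day 1 against day 0 they were Fn1 -0.18 to 1.64, Tnc -0.49 to 2.25, Thbs2 -0.45 to 1.71, Sparc -0.18 to 1.28, Loxl1 -0.13 to 0.77, Bgn -0.33 to 0.95 and Postn -2.09 to 0.47. In day 10 against day 0 they were Thbs1 -0.21 to 0.69. In day 5 against day 3 they were Postn -0.28 to 0.15, Thbs4 -0.41 to 0.87 and Sparc -0.14 to 0.10. In Cas9M3 against CTRL cells on day 0 they were Thbs2 -1.54 to 0.29, Sparc -0.25 to 0.50 and Postn -0.96 to 4.28. In Cas9M3 against CTRL cells on day 3 they were Sparc -0.12 to 0.0041. In CTRL day 3 against CTRL day 0 they were Thbs2 -0.85 to 0.54, Postn -0.13 to 5.11 and Loxl1 -0.33 to 0.12. In Cas9M3 day 3 against Cas9M3 day 0 they were Fn1 -0.20 to 0.89, Postn -1.55 to 1.82, Thbs2 -0.82 to 1.02, Lox -0.080 to 0.16 and Loxl1 -0.075 to 0.24. In the day 3 minus day 0 repression effect they were Thbs1 -1.40 to 0.94, Thbs2 -0.66 to 1.17, Sparc -0.56 to 0.19, Postn -4.97 to 0.27, Loxl1 -0.041 to 0.41 and Bgn -0.013 to 0.50.

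Counts over all genes moved further. In day 1 against day 0, 1005 genes became 418 with no filter, 619 with quantile normalization, 248 with the fold threshold of 2, 0 with only the groups compared and 0 with an Xist term. In day 3 against day 0, 8179 genes became 2225 with the fold threshold of 2. In day 5 against day 0, 4267 genes became 866 with the fold threshold of 2, 1340 with only the groups compared and 0 with an Xist term. In day 10 against day 0, 1 gene became 0 with a pseudocount of 1, 15 with a pseudocount of 0.01, 28 with no filter, 2 with the replicate block, 0 with only the groups compared and 0 with an Xist term. In day 3 against day 1, 5213 genes became 1009 with the fold threshold of 2, 2835 with only the groups compared and 1369 with an Xist term. In day 5 against day 3, 2126 genes became 280 with the fold threshold of 2 and 0 with an Xist term. In day 10 against day 3, 6346 genes became 1387 with the fold threshold of 2 and 3923 with an Xist term. In day 10 against day 5, 47 genes became 232 with a pseudocount of 1, 23 with a pseudocount of 0.01, 84 with no filter, 98 with quantile normalization, 463 with the replicate block, 26 with the fold threshold of 2, 0 with only the groups compared and 0 with an Xist term. In Cas9M3 against CTRL cells on day 3, 274 genes became 453 with a pseudocount of 1, 505 with the replicate block, 165 with the fold threshold of 2 and 2637 with only the groups compared. In CTRL day 3 against CTRL day 0, 158 genes became 254 with a pseudocount of 1, 105 with no filter, 411 with the replicate block, 96 with the fold threshold of 2 and 0 with only the groups compared. In Cas9M3 day 3 against Cas9M3 day 0, 4 genes became 94 with a pseudocount of 1, 2 with a pseudocount of 0.01, 16 with no filter, 32 with quantile normalization, 9 with the replicate block and 0 with only the groups compared. Quantile normalization moved the median of all genes on day 3 against day 0 to -0.12. With 2 libraries a group, an exact permutation test could not go below p = 0.333, and depth limited only Thbs4 in the cells.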
